A study of Mus musculus with 12 samples.

Results

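Bipolar cells are the first neurons to receive the photoreceptor signal, and 9 genes that mark them or carry their light response were followed in Crx mutant mouse retina: Grm6, Gng13, Pcp2, Trpm1, Prkca, Vsx1, Lhx4, Scgn and Cabp5. The members were every probe whose gene symbol is one of these 9 names. Of the 9 genes, 8 had a probe, 16 probes in all among 45281 on the array, which names 19057 genes. Of these 16 probes, 14 were detected on at least 1 array (detection p-value below 0.05) and were tested, among 24311 tested probes, and these 14 covered all 8 genes. The 2 untested probes (Trpm1 ILMN_2440151 and Lhx4 ILMN_2770659) were below detection on all 12 arrays. Cabp5, a calcium-binding protein of rod bipolar and some cone bipolar cells, is given no value because no probe used here carries its symbol.

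The samples were retinas of mice at postnatal day 10 of 4 genotypes, WT, Crx -/-, E168d2neo/d2neo and R90Wneo/Wneo, with 3 arrays for each. An array carried RNA pooled from 4 retinas of 2 mice, 1 male and 1 female, and all animals are labelled C57bl6/J. E168d2neo is a knock-in frameshift that truncates the activation domain of CRX, R90Wneo is a knock-in substitution in its DNA-binding homeodomain, and both alleles still hold the neomycin selection cassette in an intron of Crx. The knock-in lines were made in stem cells of a 129 strain and crossed back to C57BL6/J, Crx -/- is a germline knockout, and all mutants are homozygous, so every cell carries the allele, whichever cell expresses it.

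CRX is a homeodomain transcription factor of photoreceptors that is also present in bipolar cells. ON bipolar cells read the glutamate released by photoreceptors with the receptor mGluR6. In the dark mGluR6 acts through a Go protein to hold the cation channel TRPM1 shut, and light, by lowering glutamate, opens it. OFF bipolar cells use ionotropic glutamate receptors instead. At postnatal day 10, before eye opening, bipolar cells have been born and their contacts with photoreceptors are still forming.

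CRX binds DNA through short cores such as TAATCC and TAAGCC, so the promoter windows of the members (RefSeq, GRCm38.p6, from 250 bases before to 50 bases after a transcription start) were searched for these letters on both strands. All 9 genes had a window, 14 windows in all. A core was found in 4 of the 14 windows: 1 of the 2 of Trpm1, 2 of the 4 of Pcp2, which overlap and share 1 match, and the window of Cabp5. None of the windows of Vsx1, Grm6, Prkca, Gng13, Lhx4 or Scgn held one. Over all 32851 windows, TAATCC was found in 7.06%, TAAGCC in 9.48% and either of them in 15.8%. A window with a core is shown for the channel gene Trpm1 and for Pcp2 (the member with the lowest adjusted p), beside the window of the transcription factor gene Vsx1, 5′ to 3′ along the gene, with the matched core in capitals (here read on the opposite strand, as GGATTA or GGCTTA).
Trpm1: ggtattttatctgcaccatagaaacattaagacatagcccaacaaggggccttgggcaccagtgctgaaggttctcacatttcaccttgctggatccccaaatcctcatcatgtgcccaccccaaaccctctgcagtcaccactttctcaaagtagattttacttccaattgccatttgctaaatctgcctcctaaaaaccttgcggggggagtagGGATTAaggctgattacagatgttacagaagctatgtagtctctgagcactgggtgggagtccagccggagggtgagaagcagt
Pcp2: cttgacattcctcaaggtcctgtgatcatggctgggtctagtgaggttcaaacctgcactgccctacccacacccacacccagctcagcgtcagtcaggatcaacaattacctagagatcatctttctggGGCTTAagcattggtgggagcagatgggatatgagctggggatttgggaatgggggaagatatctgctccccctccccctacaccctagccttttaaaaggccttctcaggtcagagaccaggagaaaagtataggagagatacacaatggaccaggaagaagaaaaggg
Vsx1: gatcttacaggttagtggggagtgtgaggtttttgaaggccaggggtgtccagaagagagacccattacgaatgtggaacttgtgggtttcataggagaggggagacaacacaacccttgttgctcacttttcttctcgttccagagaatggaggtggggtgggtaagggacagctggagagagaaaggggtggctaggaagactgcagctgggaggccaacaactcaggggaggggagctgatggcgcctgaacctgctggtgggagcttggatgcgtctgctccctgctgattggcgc
The Trpm1 window (chr7:64153585-64153884, plus strand) had its TAATCC core beginning at -34 from the start, and the Pcp2 window (chr8:3625498-3625797, minus strand) had a TAAGCC core beginning at -120. The Vsx1 window (chr2:150689088-150689387, minus strand) had none. A match is a description of the letters and not a binding site, and a window without one says nothing about sites elsewhere.

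All values below are log2 of the quantile-normalized signal of a probe, and differences are in log2 units (mutant minus WT) from limma, where a difference of 1 is 2-fold. A gene was called changed where the adjusted p did not exceed 0.05 and the change reached 2-fold, and is represented by its brightest probe unless another is named. Signals of different probes are not read as the relative expression of genes. They are ranked or summed only as signals. Mean signal before normalization ranged from 176.1 to 394 per array and 32.7% to 41.3% of probes were detected. WT replicate 1 (176.1) and E168d2neo/d2neo replicate 1 (183) had the lowest mean signals and the fewest detected probes (14791 and 15235). The other arrays ran from 231.7 to 394 and from 16326 to 18710. The Crx probe stayed bright in every genotype, with means of 13.51 ± 0.12 in WT, 13.90 ± 0.21 in E168d2neo/d2neo, 13.48 ± 0.08 on the R90Wneo/Wneo arrays and 12.95 ± 0.11 in Crx -/- (SD, n = 3). Whether it lies in the deleted part of the knockout is not known here, so it does not check the labels.

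None of the 8 measured bipolar genes was called in any of the 3 comparisons with WT. Of all tested probes, 3.79% were called in either direction in the E168d2neo/d2neo comparison, 3.89% with Crx -/- and 0.979% with R90Wneo/Wneo. In E168d2neo/d2neo these were 545 lower and 376 higher probes, a split that became 438 and 610 when arrays were scaled to an equal mean and 747 and 916 with array weights. Without E168d2neo/d2neo replicate 1 it was 648 and 805. In R90Wneo/Wneo the 158 lower and 80 higher probes became 65 and 25 without R90Wneo/Wneo replicate 1 and 100 and 40 without WT replicate 1. Shifts smaller than 2-fold were present among the members. Their median difference was -0.58 in E168d2neo/d2neo, -0.20 on the R90Wneo/Wneo arrays and -0.50 in Crx -/-, where the median over all tested probes was 0.01 in each. Values were below WT for 6, 6 and 7 of the 8 genes, in that order, against 46.7%, 45.9% and 46.4% of all tested probes. At an unadjusted p below 0.05 there were 5 lower genes and 1 higher gene in E168d2neo/d2neo, where 10.3% and 11.3% of all tested probes were lower and higher. The same counts, 5 and 1, were found in Crx -/- (10.4% and 11.2%), and none in R90Wneo/Wneo (5.68% and 5.74%). With bulk retina, fewer bipolar cells and less RNA per bipolar cell cannot be told apart.

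**Figure D1:**
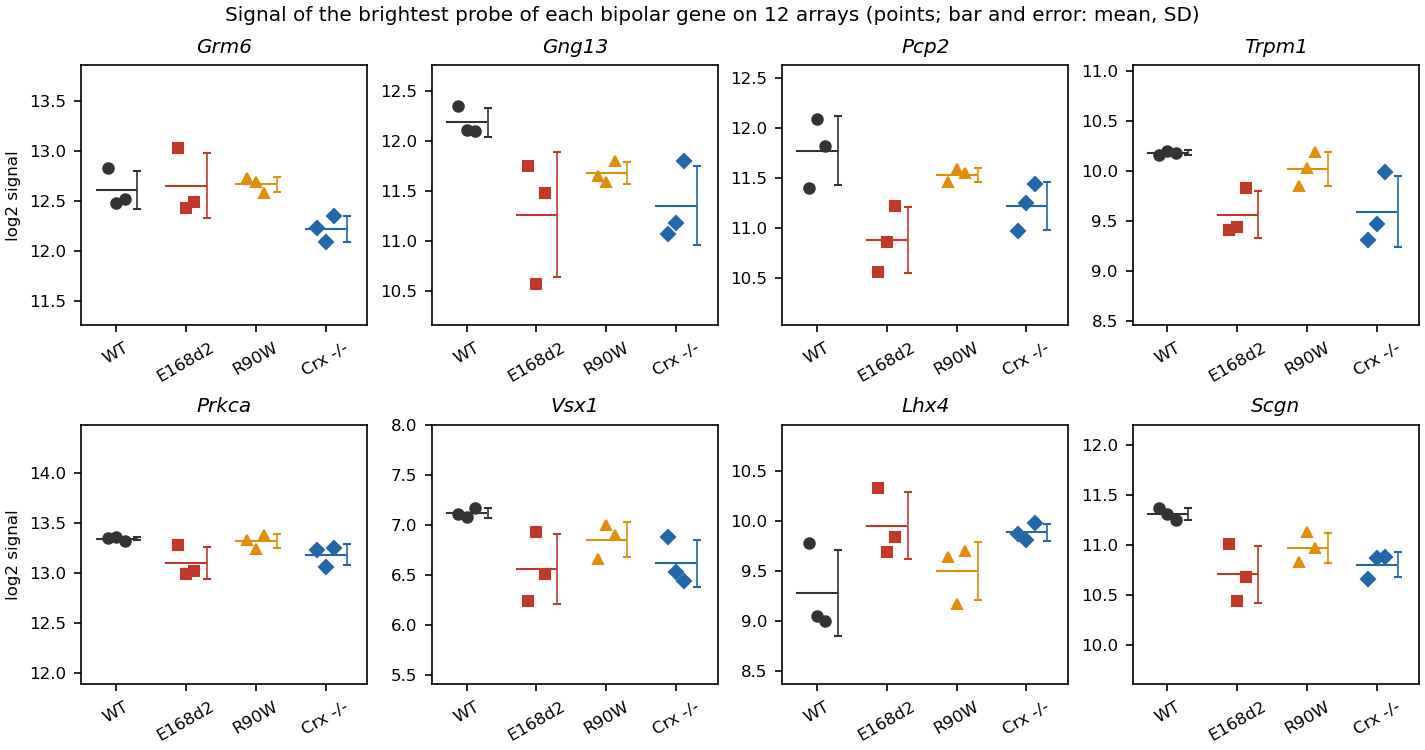
Log2 signal (vertical axis, 2.6 units tall in every panel) of the brightest probe of each of 8 bipolar genes on every array, by genotype (tick names shortened); points are arrays, the horizontal bar is the mean and the error bar the SD (n = 3). Gng13, Vsx1 and Scgn had all 9 mutant arrays below the 3 WT arrays, and Lhx4 had all 3 Crx -/- arrays above WT.

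The receptor came first. Grm6 (chr11:50850369-50866208) encodes mGluR6, whose expression in the retina is restricted to ON bipolar cells. Its signal was 12.83, 12.48 and 12.53 on the 3 WT arrays, 13.03, 12.44 and 12.50 in E168d2neo/d2neo, 12.73, 12.70 and 12.58 on the R90Wneo/Wneo arrays, and 12.24, 12.09 and 12.35 in Crx -/-. The 2 knock-in genotypes overlapped WT and the 3 Crx -/- arrays lay below it. The difference from WT was 0.04 ± 0.18 (SE; 95% interval -0.36 to 0.44) in E168d2neo/d2neo and 0.06 ± 0.18 (-0.35 to 0.46) in R90Wneo/Wneo, signs that turned when arrays were scaled to an equal mean. In Crx -/- it was -0.39 ± 0.18 (-0.79 to 0.02, adjusted p = 0.252). All 3 intervals stayed within 2-fold.

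Downstream of the receptor, Gng13 and Pcp2 had the 2 lowest differences of the list in E168d2neo/d2neo. Gng13 (chr17:25717172-25719102) encodes the G-protein gamma subunit of the ON bipolar cascade. It gave 12.35, 12.11 and 12.10 in WT, 11.76, 10.57 and 11.48 in E168d2neo/d2neo, 11.66, 11.59 and 11.80 on the R90Wneo/Wneo arrays, and 11.08, 11.18 and 11.81 in Crx -/-. Every mutant array was below every WT array. The differences were -0.92 ± 0.29 (adjusted p = 0.0879), -0.51 ± 0.29 (adjusted p = 0.571) and -0.83 ± 0.29 (adjusted p = 0.113), so none passed. Without E168d2neo/d2neo replicate 1 the E168d2neo/d2neo difference was -1.16 and was called (adjusted p = 0.0272), while without replicate 2 it was -0.57 (adjusted p = 0.234). Replicate 1 also had the highest summed signal of 5 lens markers, 40050, against 19.58 and 90.67 on the other E168d2neo/d2neo arrays and 127.1 to 449.7 in WT. Lens signal above the WT range was also found on Crx -/- replicates 1 (10490) and 3 (1141) and on R90Wneo/Wneo replicate 3 (4407). Leaving out any 1 of these last 3 arrays made no member a call. The part of lens RNA, or of the low mean signal of E168d2neo/d2neo replicate 1 (183), in the Gng13 value was not tested.

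Pcp2 (chr8:3623369-3625547) encodes a modulator of Go/Gi proteins found in rod bipolar and some ON cone bipolar cells. Its signal was 11.41, 12.10 and 11.83 in WT, 10.57, 10.87 and 11.22 in E168d2neo/d2neo, 11.46, 11.59 and 11.55 on the R90Wneo/Wneo arrays, and 10.97, 11.26 and 11.45 in Crx -/-. The E168d2neo/d2neo arrays lay below WT, the R90Wneo/Wneo arrays within the WT range, and the highest Crx -/- array just above the lowest WT array. Pcp2 in E168d2neo/d2neo was the 1 member value with an adjusted p of at most 0.05 (-0.89 ± 0.22, adjusted p = 0.0356). Of all tested probes, 3.68% were lower at that threshold alone. The change was 1.86-fold and so was not called. It passed 2-fold without WT replicate 1 (-1.07, adjusted p = 0.0209) or without E168d2neo/d2neo replicate 3 (-1.07, adjusted p = 0.0299). WT replicate 1 stood apart in markers of tissue around the retina, with a summed signal of pigment epithelium markers of 6908 against 2064 and 2194 on the other WT arrays, and of blood markers of 33660 against 16390 and 14220. Their part in the Pcp2 value, and that of the low mean signal of this array (176.1), was not tested. The differences in R90Wneo/Wneo (-0.24 ± 0.22, adjusted p = 0.745) and Crx -/- (-0.55 ± 0.22, adjusted p = 0.168) did not pass.

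Trpm1 (chr7:64153835-64269772) encodes the transduction channel that mGluR6 closes. It lies 48.3 Mb from Crx on chromosome 7. Its brightest probe (ILMN_3163501) gave 10.16, 10.21 and 10.19 in WT, 9.41, 9.44 and 9.83 in E168d2neo/d2neo, 9.85, 10.04 and 10.19 on the R90Wneo/Wneo arrays, and 9.31, 9.47 and 9.99 in Crx -/-. The E168d2neo/d2neo and Crx -/- arrays were all below WT and the R90Wneo/Wneo arrays overlapped it. The differences were -0.62 ± 0.20 (adjusted p = 0.0932), -0.16 ± 0.20 (adjusted p = 0.831) and -0.59 ± 0.20 (adjusted p = 0.102). Another detected Trpm1 probe (ILMN_3162921) gave -0.27, -0.22 and -0.45 with adjusted p of 0.521, 0.776 and 0.274, and Crx -/- replicate 3 lay above all WT arrays on it. The remaining tested Trpm1 probe (ILMN_1244471) was detected on only 3 of 12 arrays, none of them WT, and is left without a difference.

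Prkca (chr11:107933387-108343888) encodes protein kinase C alpha, the usual antibody marker of rod bipolar cells. Its bright probe (ILMN_1256967) was among the steadiest of the list, with 13.35, 13.36 and 13.32 in WT, 13.28, 12.99 and 13.02 in E168d2neo/d2neo, 13.33, 13.24 and 13.38 on the R90Wneo/Wneo arrays, and 13.23, 13.06 and 13.25 in Crx -/-. The E168d2neo/d2neo and Crx -/- arrays lay just below WT. The differences were -0.25 ± 0.14, -0.03 ± 0.14 and -0.16 ± 0.14, and their 95% intervals ran no lower than -0.55. A dim Prkca probe (ILMN_1217890), detected on 8 of 12 arrays, gave larger differences of -0.97 ± 0.46, -0.68 ± 0.46 and -1.29 ± 0.46 (adjusted p = 0.254, 0.648 and 0.126). It was detected on all 3 WT arrays but on 1 of 3 Crx -/- arrays, so its differences depend on values at the floor of the scale. The last of these was called with array weights (adjusted p = 0.0298) and by SAM, the test named in the methods of the study.

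Vsx1 (chr2:150680702-150689137) encodes a homeodomain factor of cone bipolar subtypes. Its probes were the member pair that differed most in size of change. The brighter one over all arrays (ILMN_2511563) gave 7.11, 7.08 and 7.18 in WT, 6.24, 6.93 and 6.52 in E168d2neo/d2neo, 6.67, 7.01 and 6.90 on the R90Wneo/Wneo arrays, and 6.89, 6.54 and 6.44 in Crx -/-. All 9 mutant arrays were below WT, by -0.56 ± 0.20 (adjusted p = 0.128), -0.26 ± 0.20 (adjusted p = 0.677) and -0.50 ± 0.20 (adjusted p = 0.161). The other (ILMN_2873623) gave 7.18, 7.18 and 7.11 in WT, 5.46, 6.03 and 5.52 in E168d2neo/d2neo, 4.44, 6.80 and 6.03 on the R90Wneo/Wneo arrays, and 5.18, 5.80 and 5.55 in Crx -/-. All mutant arrays were again below WT, and R90Wneo/Wneo replicate 1 was not detected.

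On this probe the differences exceeded 2-fold, at -1.49 ± 0.46 (2.80-fold, adjusted p = 0.0843), -1.40 ± 0.46 (2.64-fold, adjusted p = 0.234) and -1.65 ± 0.46 (3.13-fold, adjusted p = 0.0557), and missed the threshold. The spread of the 3 R90Wneo/Wneo arrays (SD 1.20, against 0.04 in WT, 0.31 in E168d2neo/d2neo and 0.32 in Crx -/-) entered the shared estimate of error. Without R90Wneo/Wneo replicate 1, or without replicate 2, the probe was called lower in E168d2neo/d2neo, with an adjusted p of 0.00633 or 0.0364, and in Crx -/-, with 0.00422 or 0.0233. Fits of the 2 genotypes alone also called it in Crx -/- (adjusted p = 0.0123) and E168d2neo/d2neo (adjusted p = 0.0224), as did SAM. The R90Wneo/Wneo difference was -0.75 and under 2-fold without its replicate 1, was -1.91 without replicate 2, and was not called under any alternative run.

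**Figure D2:**
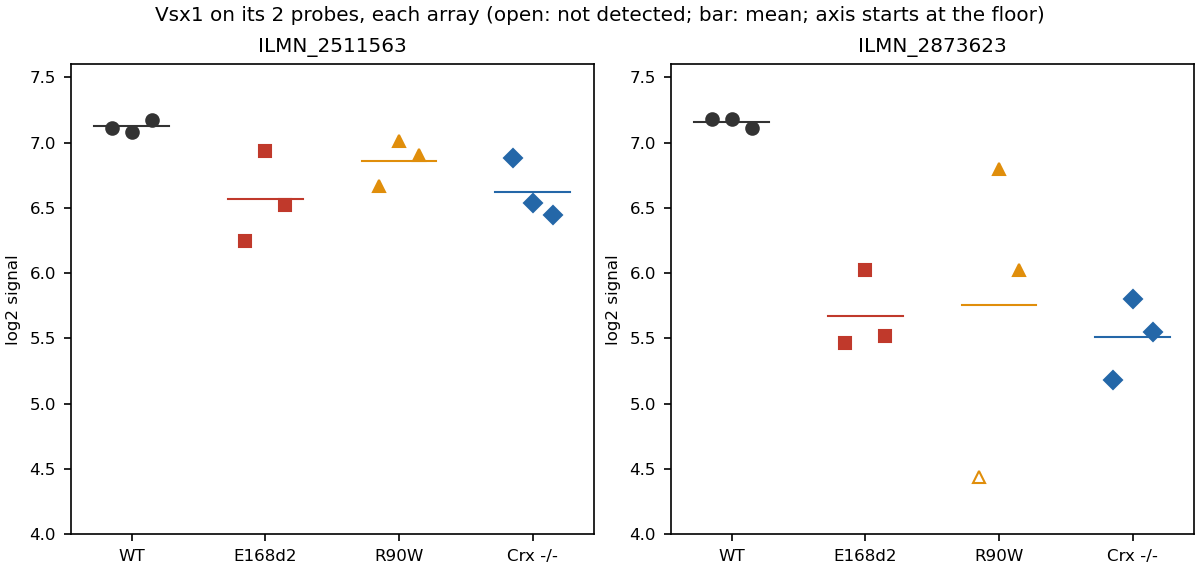
Log2 signal of Vsx1 (vertical axis, from the floor of 4) on each array for its 2 probes, by genotype (tick names shortened); filled points were detected, the open point was not, and bars are means (n = 3). On ILMN_2873623 the E168d2neo/d2neo and Crx -/- arrays sit between 5.18 and 6.03, below the WT arrays at 7.11 to 7.18.

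Lhx4 (chr1:155698031-155751726), a LIM homeodomain factor of cone bipolar cells that is also found in cones, was the member that went the other way. Its signal was 9.78, 9.06 and 9.01 in WT, 10.33, 9.69 and 9.84 in E168d2neo/d2neo, 9.64, 9.17 and 9.70 on the R90Wneo/Wneo arrays, and 9.87, 9.81 and 9.99 in Crx -/-. WT replicate 1 stood above the other WT arrays, so E168d2neo/d2neo overlapped WT while Crx -/- lay narrowly above it. That WT array had the most pigment epithelium and blood signal of its group and the lowest mean signal of all arrays. E168d2neo/d2neo replicate 1, the highest of its group for Lhx4, had the next lowest mean signal. The part of these in the Lhx4 values was not tested. The differences were 0.67 ± 0.25 (adjusted p = 0.141), 0.22 ± 0.25 (adjusted p = 0.807) and 0.61 ± 0.25 (adjusted p = 0.176).

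Scgn (chr13:23953456-23991327) encodes secretagogin, a calcium-binding protein of cone bipolar subtypes. Its brightest probe (ILMN_2827997) gave 11.37, 11.30 and 11.25 in WT, 11.00, 10.44 and 10.67 in E168d2neo/d2neo, 10.83, 11.12 and 10.96 on the R90Wneo/Wneo arrays, and 10.66, 10.87 and 10.88 in Crx -/-. All 9 mutant arrays were below WT, by -0.60 ± 0.17 (adjusted p = 0.058), -0.34 ± 0.17 (adjusted p = 0.496) and -0.51 ± 0.17 (adjusted p = 0.102). The other Scgn probes gave smaller differences of -0.23, -0.11 and -0.30 (ILMN_2612378) and of -0.25, -0.01 and -0.14 (ILMN_1227332). On the last of these all 3 signs turned when single arrays were left out.

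Over the 8 genes by the brightest probe, all arrays of the mutant were below all WT arrays for 6 genes in E168d2neo/d2neo (11% of all tested probes). The same held for 3 in R90Wneo/Wneo (8.5%) and 6 in Crx -/- (13.9%), with 1 gene above in Crx -/- (15.8%). Counted by probe, 8, 5 and 8 of the 14 tested probes lay below WT in that order. The Trpm1 probe ILMN_3162921 overlapped WT in E168d2neo/d2neo and Crx -/-. On the brightest probe of Gng13, Vsx1 and Scgn all 9 mutant arrays lay below WT at once, which 4.55% of all tested probes did. The other Vsx1 probe did so too, while the other Scgn probes overlapped WT in each mutant. By the brightest probe, intervals excluded a 2-fold change in either direction for 4 genes in E168d2neo/d2neo and in Crx -/- (Grm6, Prkca, Vsx1 and Scgn). In R90Wneo/Wneo they did so for 7, with Gng13 the exception (-1.14 to 0.13). Other probes did not all exclude it. Vsx1 ILMN_2873623 gave -2.50 to -0.48 in E168d2neo/d2neo, -2.41 to -0.39 in R90Wneo/Wneo and -2.66 to -0.64 in Crx -/-. The dim Prkca probe did not exclude it in any mutant, nor did Scgn ILMN_1227332 in E168d2neo/d2neo (-1.07 to 0.57).

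**Figure D3:**
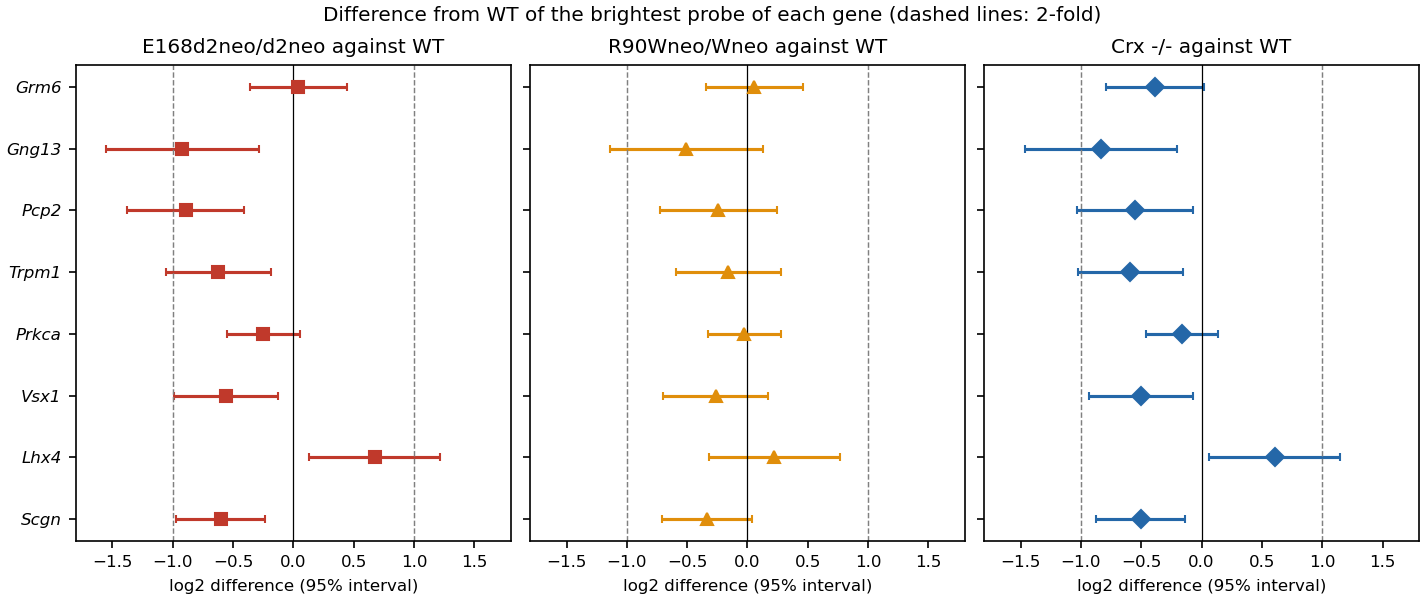
Log2 difference from WT (horizontal axis) of the brightest probe of each of 8 bipolar genes in the 3 mutant genotypes; symbols are estimates, bars 95% intervals, dashed lines 2-fold. The R90Wneo/Wneo estimates lie between -0.51 and 0.22, the E168d2neo/d2neo estimates between -0.92 and 0.67 and the Crx -/- estimates between -0.83 and 0.61.

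The 3 mutants were also compared with each other. No member was called, where 0.531% of all tested probes were called between E168d2neo/d2neo and Crx -/-, 0.378% between R90Wneo/Wneo and Crx -/- and 0.522% between E168d2neo/d2neo and R90Wneo/Wneo. These shares moved with single arrays and with the fit, while no member was called by its brightest probe under any alternative run. The 129 probes called between E168d2neo/d2neo and Crx -/- became 57 without Crx -/- replicate 2, 245 without E168d2neo/d2neo replicate 1 and 6 with only these genotypes in the fit. The 92 between R90Wneo/Wneo and Crx -/- became 15 without R90Wneo/Wneo replicate 3, 146 without E168d2neo/d2neo replicate 1 and 18 with only these genotypes. The 127 between the knock-ins became 64 without R90Wneo/Wneo replicate 3, 210 without E168d2neo/d2neo replicate 1 and 31 with only these genotypes. The differences of E168d2neo/d2neo from Crx -/- ran from -0.34 (Pcp2) to 0.43 (Grm6) with a median of -0.07. Grm6 was higher on all 3 E168d2neo/d2neo arrays than on any Crx -/- array (unadjusted p = 0.0397, adjusted p = 0.439), as were 6.52% of all tested probes. The same held in R90Wneo/Wneo (difference 0.44, adjusted p = 0.419; 10.6% of all tested probes). Between the 2 knock-in genotypes, Pcp2 was lower in E168d2neo/d2neo by -0.65 ± 0.22 (adjusted p = 0.383) and Trpm1 by -0.46 ± 0.20 (adjusted p = 0.529), both without overlap of the arrays, as were 7.03% of all tested probes. By the brightest probe all 8 intervals stayed within 2-fold in both comparisons with Crx -/-, and 6 of 8 did between the knock-ins. On Vsx1 ILMN_2873623 the interval against Crx -/- ran from -0.85 to 1.17 in E168d2neo/d2neo and from -0.77 to 1.25 in R90Wneo/Wneo.

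Other genes of the same cells and contacts were taken from 4 lists. Among 11 partners of the ON cascade, 8 were tested. Gnb5, the G-protein beta subunit that stabilizes RGS proteins in bipolar cells and photoreceptors, fell in E168d2neo/d2neo (-1.22 ± 0.20, adjusted p = 0.00419), from 12.68 ± 0.14 to 11.46 ± 0.17 (SD, n = 3). Its difference was -0.99 ± 0.20 in Crx -/- (adjusted p = 0.014), just short of 2-fold, and -0.52 ± 0.20 in R90Wneo/Wneo (adjusted p = 0.343). It was called in Crx -/- without WT replicate 1 (-1.05), without Crx -/- replicate 3 (-1.15), with mean scaling (-1.05) and with array weights (-1.01). Lrit1, a leucine-rich repeat protein of the photoreceptor terminal, also fell in E168d2neo/d2neo (-2.04 ± 0.44, adjusted p = 0.0191), a call lost without WT replicate 1 (adjusted p = 0.0613) or E168d2neo/d2neo replicate 2 (adjusted p = 0.069). The other 6 tested partners, among them Gnb3 (differences of -0.09, 0.26 and 0.15), were not called in any mutant. The median of this list was -0.10, 0.08 and -0.29 in E168d2neo/d2neo, R90Wneo/Wneo and Crx -/-.

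Of 13 bipolar transcription factors 9 were tested, and their medians were 0.33, 0.01 and 0.33. The homeobox gene Sebox fell in E168d2neo/d2neo (-1.61 ± 0.36, adjusted p = 0.0224) and Crx -/- (-1.84 ± 0.36, adjusted p = 0.011). Its signal was 7.63 ± 0.21 in WT, 6.02 ± 0.44 in E168d2neo/d2neo, 6.73 ± 0.54 on the R90Wneo/Wneo arrays and 5.78 ± 0.65 in Crx -/-. The first call was lost without WT replicate 2 (adjusted p = 0.0757), WT replicate 3 (adjusted p = 0.0661) or E168d2neo/d2neo replicate 2 (adjusted p = 0.0861), and the second without Crx -/- replicate 1 (adjusted p = 0.0503) or 2 (adjusted p = 0.0511). Otx2, the homeodomain relative of CRX present in photoreceptors and bipolar cells, rose in Crx -/- (1.05 ± 0.19, adjusted p = 0.00804), by 0.97 and under 2-fold without WT replicate 2. Its differences were 0.63 and 0.67 in E168d2neo/d2neo and R90Wneo/Wneo (adjusted p = 0.0833 and 0.161). Isl1, needed for ON bipolar cell development, gave 0.29 ± 0.15 in R90Wneo/Wneo (adjusted p = 0.524), where no gene of the list was called. Its differences were 0.33 in E168d2neo/d2neo and 0.39 in Crx -/- (adjusted p = 0.234 and 0.153). All 9 mutant arrays lay above the WT arrays (at least 13.50 against at most 13.42), which 3.75% of all tested probes did.

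Of 25 further bipolar markers 19 were tested, with medians of -0.11, -0.01 and -0.07. Only 1 was called in any comparison with WT: Prkar2b, a regulatory subunit of protein kinase A used as an OFF cone bipolar marker, fell in Crx -/- by 2.35 on the log2 scale (± 0.32, adjusted p = 0.00143). Its signal was 9.15 ± 0.18 in WT, 9.77 ± 0.66 in E168d2neo/d2neo, 9.39 ± 0.08 on the R90Wneo/Wneo arrays and 6.80 ± 0.51 in Crx -/-. The comparisons between mutants were called as well, with E168d2neo/d2neo above Crx -/- by 2.97 and R90Wneo/Wneo above it by 2.59. With only the 2 genotypes compared in the fit the adjusted p were 0.137 and 0.0775, and the latter call was also lost without R90Wneo/Wneo replicate 3 (adjusted p = 0.0548). The brightest genes of this list, Trnp1 and Nnat, were not called, with differences between -0.14 and 0.05 in the 2 knock-in genotypes.

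The list for the photoreceptor side of the same contact, chosen like the others with earlier results of these data known, held more called genes. Of its 11 genes 10 were tested, and 5 fell in E168d2neo/d2neo, 3 in Crx -/-, where 1 rose, and 1 in R90Wneo/Wneo. Over all tested probes the shares called lower were 2.24%, 2.34% and 0.65% in that order, and 1.55% were called higher in Crx -/-. The medians were -0.99, -0.17 and -0.45. Bulk retina does not show which cells the signal of this list came from. Cabp4, the calcium-binding regulator of the photoreceptor calcium channel, went from 11.07 ± 0.09 in WT to 6.78 ± 0.36 in Crx -/- and 9.13 ± 0.68 in R90Wneo/Wneo, the latter a call (adjusted p = 0.0175) lost without any one WT array or without R90Wneo/Wneo replicate 1 or 2 (adjusted p between 0.058 and 0.0794). In E168d2neo/d2neo Cabp4 was not above background on any array, which puts it at least 80.3-fold lower (adjusted p = 7.25e-07 against WT), with the dimmest detected signal of each array as the bound. Slc17a7, the vesicular glutamate transporter that fills photoreceptor vesicles, fell in Crx -/- (-1.98 ± 0.29, adjusted p = 0.00213) and in E168d2neo/d2neo (-2.48 ± 0.29, adjusted p = 0.000409). Elfn1, the photoreceptor adhesion protein that binds mGluR6 across the cleft, fell in Crx -/- (-1.14 ± 0.18, adjusted p = 0.00323) and E168d2neo/d2neo (-1.86 ± 0.18, adjusted p = 0.000107), while Grm6 itself was not called in either. Cacna2d4, an auxiliary subunit of the channel, fell in E168d2neo/d2neo (-1.96 ± 0.30, adjusted p = 0.00258), as did Cacna1f, its pore-forming subunit, named after its value was seen (-1.37 ± 0.16, adjusted p = 0.00051). Pclo, a scaffold of the presynaptic active zone, rose in Crx -/- (1.07 ± 0.19, adjusted p = 0.00599), by 0.95 and under 2-fold without WT replicate 1.

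**Figure D4:**
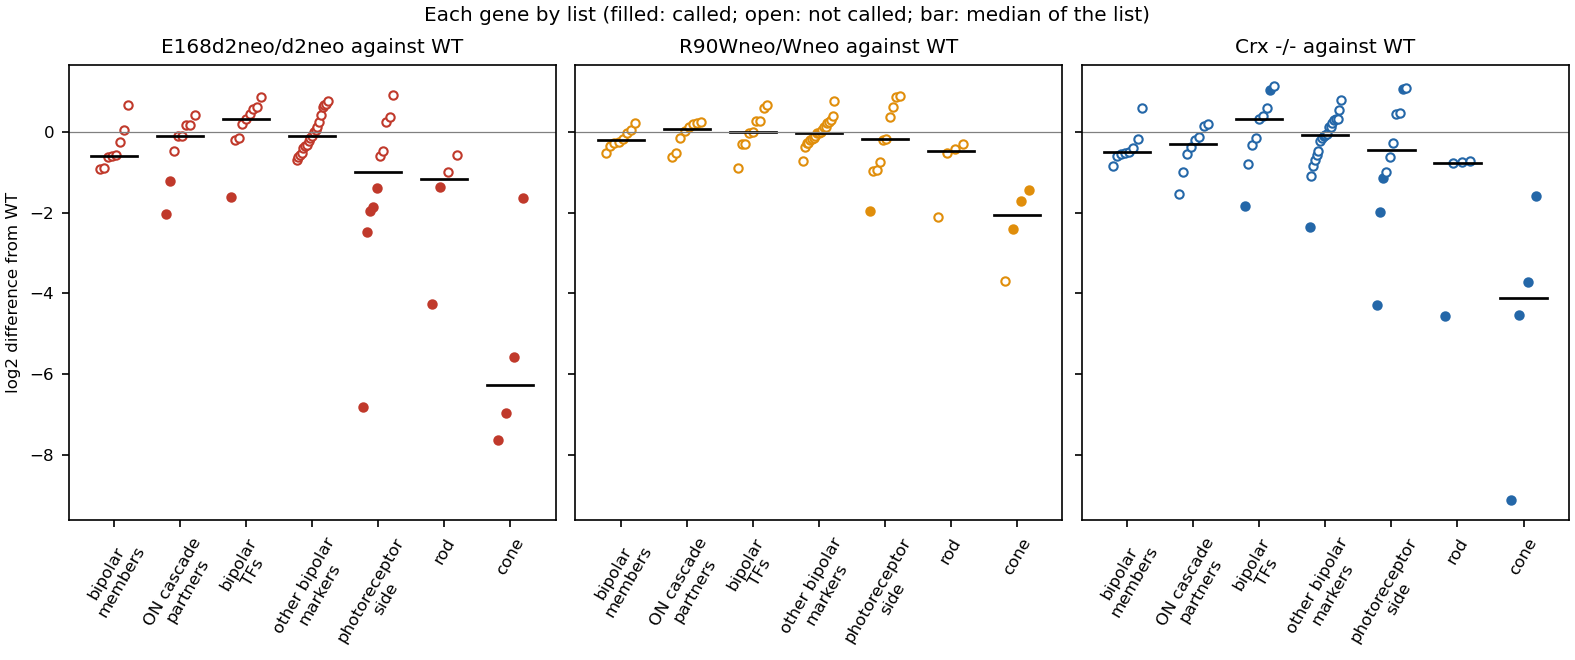
Log2 difference from WT (vertical axis) of each tested gene by list in the 3 mutant genotypes; filled circles were called, open circles were not, and bars are list medians. The 8 bipolar members are all open, while the photoreceptor side holds 5, 1 and 4 called genes and the cone list 4, 3 and 4.

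Markers of other cells moved on the same arrays. The summed signal of 4 rod markers was 103238 to 111208 in WT, 23758 to 33116.5 in E168d2neo/d2neo, 41113.3 to 83790.8 on the R90Wneo/Wneo arrays and 32130.6 to 35821 in Crx -/-. For 4 cone markers it was 13134.9 to 16335.4 in WT, 335.575 to 465.529 in E168d2neo/d2neo, 1185.81 to 6133.94 on the R90Wneo/Wneo arrays and 544.2 to 688.265 in Crx -/-. On R90Wneo/Wneo replicates 1, 2 and 3 the rod sums were 41110, 51910 and 83790 and the cone sums 1186, 2584 and 6134. The R90Wneo/Wneo means thus average unlike arrays. The rod and cone sums were lower than in WT in each mutant, without overlap of the arrays. With bulk retina a lower sum does not tell fewer cells from less RNA per cell. By gene, 2 of the 4 rod markers were called lower in E168d2neo/d2neo (Gnat1 and Pde6b), 1 in Crx -/- (Gnat1) and none in R90Wneo/Wneo, with medians of -1.17, -0.76 and -0.47. Gnat1, the rod transducin alpha subunit, went from 15.73 ± 0.10 in WT to 11.46 ± 0.39 in E168d2neo/d2neo, 11.16 ± 0.16 in Crx -/- and 13.61 ± 1.81 on the R90Wneo/Wneo arrays. As the brightest of the 4 rod markers in WT, Gnat1 weighs most in the rod sum. Nrl, the dimmest of them in WT, went from 13.74 ± 0.08 to 13.17 ± 0.47, 13.01 ± 0.15 and 13.45 ± 0.08 in the same order. Of the 3 cone genes called in R90Wneo/Wneo, the call of Arr3 (-2.41, adjusted p = 0.024) was lost without any one WT array or without R90Wneo/Wneo replicate 1 or 2 (adjusted p between 0.0647 and 0.087), and that of Pde6h (-1.72, adjusted p = 0.0156) without WT replicate 2 or 3 or R90Wneo/Wneo replicate 1 (adjusted p between 0.0553 and 0.0625). Of the 3 tested horizontal cell markers 1 was called higher in Crx -/- (Onecut2, 1.06 ± 0.21, adjusted p = 0.0126, named after its value was seen), a call lost without WT replicate 1 (0.85) or Crx -/- replicate 2 (adjusted p = 0.0507). None of the tested Mueller glia (5), amacrine (7), ganglion cell (6), microglia (6), pigment epithelium (4), lens (5) or blood (2) markers was called in any mutant. The part of these shifts in the values of the bipolar genes was not tested.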

How the data were processed

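Retinal RNA from 12 pools was hybridized to Illumina MouseWG-6 v2.0 BeadChips. The authors deposited, per the file headers, background-subtracted but not normalized probe intensity with a detection p-value for each array from GenomeStudio (version not given in the sources used here). A second deposited table holds the same intensity times 1 factor per array. Its identifiers were mismatched with its values (correlation with the signal table by identifier between -0.00528 and 0.00771), so its rows were read by position and used as an alternative only.

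Signals were quantile normalized, set to at least 16, and log2 transformed. Probes with a detection p-value below 0.05 on at least 1 array were tested (24311 of 45281). The 4 genotypes were fitted together with limma 3.58.1 in R 4.3.3 (lmFit, contrasts.fit, eBayes, 8 residual and 3.07 prior degrees of freedom), and p-values were Benjamini-Hochberg adjusted over all tested probes within a comparison. Intervals are 95%. Scripts were tested on simulated data. An exact permutation test of 3 against 3 arrays has a smallest p of 0.1, so none was used. The number of arrays limits the precision. Gene symbols came from the platform table (34885 probes with 1 symbol, 18 with several, 10378 with none), and coordinates from RefSeq on GRCm38.p6. Of several probes, the one with the highest mean represents a gene.

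Same-numbered WT and E168d2neo/d2neo arrays deviated together from their group means (correlations of 0.313, 0.177 and 0.101), so these numbers were read as pairs from the data, with no label that explains them. In no other pair of genotypes did all 3 exceed 0.1 (-0.0523 to 0.107). The largest correlation, 0.313, was between the 2 replicate 1 arrays, which had the lowest mean signals before normalization. The part of low signal in the shared deviation was not tested. The fit with replicate number as a block is an alternative.

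The members and lists were chosen with earlier results of these data known. Named genes were all members with every probe, Crx, and of each other list the called genes (at most 4 by size) or, where none was called, the 2 with the highest mean, of which some are left out for length. The genes most like a called member were to be named, but no member was called. Alternatives covered scaling, background (normexp), floor (32 and 4), filters, samples in the fit, SAM with 20 permutations of the labels, array weights, a replicate block, the fold minimum, the choice of probe and each array left out.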

Additional observations from a re-analysis of the deposited data

How the results depend on the processing

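The count of bipolar genes called lower in E168d2neo/d2neo was 0 and became 1 with the adjusted p alone (Pcp2). It ranged from 0 to 1 when arrays were left out (1 without WT replicate 1, E168d2neo/d2neo replicate 1 or E168d2neo/d2neo replicate 3). The other 11 counts of called members stayed at 0 under all alternatives run. These counts go by the brightest probe of each gene, and other probes of Vsx1 and Prkca were called under some alternatives. By unadjusted p the members with a value below 0.05 were 5 lower and 1 higher in E168d2neo/d2neo and in Crx -/-, and SAM called no member by its brightest probe. A slide block was not run because the column headers give no slide.

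With a replicate block the counts of called members stayed at 0, and no call of a named gene changed in E168d2neo/d2neo, the 1 comparison in which same-numbered arrays deviated together. The Vsx1 probe ILMN_2873623 (adjusted p = 0.0351) and the dim Prkca probe (adjusted p = 0.0213) were then called in Crx -/-. Calls over all probes with the block were 549 lower and 341 higher in E168d2neo/d2neo, 150 and 76 in R90Wneo/Wneo, and 565 and 364 in Crx -/-. The Vsx1 probe was also called with normexp (adjusted p = 0.0226 in E168d2neo/d2neo, 0.0133 in Crx -/-), with array weights (0.0252 and 0.0209), and in Crx -/- with a floor of 32 (0.0369) or the stricter filter (0.0378).

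Differences near 0 turned sign. With mean scaling Grm6 was -0.0192 in E168d2neo/d2neo and -0.00158 in R90Wneo/Wneo, and Scgn ILMN_1227332 was 0.12 in R90Wneo/Wneo. With array weights Grm6 was -0.0353 and Scgn ILMN_1227332 0.0579 in E168d2neo/d2neo, Prkca 0.00362 in R90Wneo/Wneo, and Trnp1 0.0697 and -0.0118 in the 2 knock-ins. Leaving out single arrays gave -0.15 to 0.15 and -0.0102 to 0.17 for Grm6 in the 2 knock-ins, -0.0585 to 0.00957 for Prkca in R90Wneo/Wneo, and -0.57 to 0.25, -0.28 to 0.19 and -0.41 to 0.0655 for Scgn ILMN_1227332 in the 3 mutants. For Trnp1 it gave -0.27 to 0.21 and -0.0834 to 0.11 in the 2 knock-ins, and for Nnat -0.14 to 0.14 in E168d2neo/d2neo. The cause was not tested. The 31 called list differences from WT kept their direction under the alternatives run. With no filter Lrit1 and Sebox were not called in E168d2neo/d2neo (adjusted p = 0.0719 and 0.0756), nor Cabp4 in R90Wneo/Wneo (adjusted p = 0.0684). Fits of the 2 genotypes alone did not call Lrit1 (0.125) or Cacna2d4 (0.0568) in E168d2neo/d2neo or Cabp4, Arr3 or Pde6h in R90Wneo/Wneo (0.118, 0.138 and 0.16) or Onecut2 in Crx -/- (0.0546). Cabp4 (0.253) and Arr3 (0.133) were not called in R90Wneo/Wneo with a floor of 4, nor Arr3 (0.102) and Pde6h (0.0561) with no filter. Onecut2 was 0.997 in Crx -/- and under 2-fold with normexp and 0.83 with array weights, and Pclo was 0.95 in Crx -/- with normexp. Over all probes, 158 lower and 80 higher calls in R90Wneo/Wneo became 36 and 14 in that fit, 81 and 9 with SAM, 97 and 41 with no filter, and 83 and 58 with a floor of 4, while array weights gave 240 lower calls and also more higher ones. In E168d2neo/d2neo 545 and 376 became 354 and 150 in that fit. Probes near the lowest detected log2 signal (4.469 to 5.301 per array) have no measurable order.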
